A study of Homo sapiens with 36 samples.

Results

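The genes described here encode the subunits of receptors for neurotransmitters: the glutamate, GABA, glycine, acetylcholine and serotonin receptor families. Members were chosen by gene symbol alone, as every symbol of the families GRIA, GRID, GRIK, GRIN, GRM, GABR, GABBR, GLR, CHRN (the neuronal subunits), CHRM and HTR in the authors' tables. No expression value entered that choice. The symbols gave 85 members among the 23146 loci of each table. Total RNA was sequenced in 36 libraries of MRC-5 cells, an established fibroblast line from human fetal lung. Some of the cells carried a virus encoding NEUROG2, meant to drive them toward neurons. NEUROG2 is a proneural basic helix-loop-helix transcription factor. The libraries form 12 groups of 3, which are 4 conditions at 0.5, 1 and 2 days post treatment (DPT).

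GFP cells carried a lentivirus encoding GFP. FD cells carried the GFP virus and received 10 µM forskolin, which activates adenylyl cyclase and so raises cyclic AMP, together with 1 µM dorsomorphin, which blocks BMP type I receptors and AMPK. N cells carried a lentivirus encoding HA-tagged NEUROG2, and NFD cells carried that virus and received both molecules. All groups are the same fibroblast line transduced with a virus, and the labels do not say whether the 3 libraries of a group came from separate cultures, so p-values measure only the spread between these libraries, which may be technical. One label places GFP cells in serum medium and another places them in the neuron induction medium of the other conditions, so a difference from GFP may include a change of medium and the pair cannot be told apart. The authors compared FD, N and NFD each with GFP of the same time. These comparisons share their GFP libraries, so a low or high GFP value enters all of them.

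Transmitter receptors are of 2 kinds. Ligand-gated channels are assembled from several subunits around a pore and pass ions within milliseconds of binding glutamate, GABA, glycine, acetylcholine or serotonin, while metabotropic receptors couple to G proteins and act more slowly. A channel needs a workable set of subunits, so the presence of one transcript does not show that a receptor is made. Fibroblasts carry few of these receptors, whereas neurons of each type carry a characteristic set.

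Values are the authors' FPKM, a level that is scaled to the length of the transcript and to the size of the library. Each is 1 value for a group of 3 libraries, so no spread between libraries can be given, and the depth of the libraries is unknown. Where 3 values follow each other, they stand for 0.5, 1 and 2 DPT in that order. The words rose and fell are used where the Cuffdiff q-value of the authors was at or under 0.05. The smallest q-value in any of their tables is 0.000151, called the floor here.

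The libraries were checked against their labels. N cells held 2616, 2565 and 2641 FPKM of NEUROG2, GFP cells 36.7, 18.5 and 15.3, and FD cells 12.7, 12.3 and 15.4; NFD cells are listed at 0 with a mark for loci holding too many fragments, so that value checks nothing. All 12 fibroblast markers were at or over 1 FPKM in every condition at 2 DPT, and their summed level was 8137 to 10166 FPKM in GFP cells, 5842 to 6014 in FD cells, 6260 to 6313 in N cells and 1409 to 4421 in NFD cells. Of 12 neuron markers, 3 were at or over 1 FPKM in GFP and FD cells at 2 DPT and 5 in N and NFD cells. Their summed level was 167 to 257 FPKM in GFP cells, 200 to 431 in FD cells, 61.5 to 151 in N cells and 94.2 to 197 in NFD cells, and most of it was TUBB3. Of 8 endothelial markers, 6 rose and TEK fell in NFD cells at 2 DPT, with summed levels of 4.82 to 19.7 FPKM in GFP, 7.86 to 19.7 in FD, 2.59 to 4.00 in N and 6.91 to 11.8 in NFD cells. Blood markers summed to 30.3 to 62.7 FPKM in GFP, 55.2 to 68.2 in FD, 10.1 to 21.6 in N and 21.1 to 26.9 in NFD cells, mostly CD68; at 2 DPT CD3E was at 0 in each condition, and the part of these markers in any receptor value was not tested. In bulk samples such as these, fewer cells of a type and less RNA per cell cannot be told apart.

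Most receptor subunits were close to silent in every condition. Of the 85 members, 50 stayed under 0.2 FPKM in all 12 groups and 5 (GABRA6, HTR1A, HTR1E, HTR1F and HTR3C) were listed at 0 throughout. In GFP cells 16, 16 and 20 members reached 0.2 FPKM, and 8, 8 and 9 reached 1 FPKM. In FD cells 16, 16 and 27 reached 0.2 FPKM, and 7, 8 and 8 reached 1 FPKM. In N cells 22, 21 and 21 reached 0.2 FPKM, and 12, 13 and 14 reached 1 FPKM. In NFD cells 21, 19 and 22 reached 0.2 FPKM, and 12, 13 and 12 reached 1 FPKM. The N and NFD groups thus each held 12 to 14 members over 1 FPKM where the GFP and FD groups held 7 to 9. Among all loci the share at or over 0.2 FPKM was 59.6% to 66.3% in each group, lowest in FD cells at 0.5 DPT and highest in NFD cells at 2 DPT. The share of all loci at or over 1 FPKM was 51.8% to 55.0% in each group.

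The summed level of the 85 members was 75.5, 81.1 and 65.2 FPKM in GFP cells but 35.5, 37.3 and 42.0 in FD cells. It was 58.5, 84.7 and 99.2 FPKM in N cells and 68.4, 158 and 255 in NFD cells. A single gene made up most of the sum at each end: CHRM2, at 40.6 to 54.3 FPKM, in GFP cells, and CHRNA3, at 160 FPKM, in NFD cells at 2 DPT. In FD and N cells the highest member was CHRM2 or GRIK2, at 8.71 to 34.0 FPKM. The 20 members that reached 1 FPKM somewhere came from every family except the delta glutamate receptors and the serotonin-gated channels. The lowest of them peaked at 2.36 FPKM (HTR2B), 1.25 (GRIN3B) and 1.18 (GRIA2), and the next below the line peaked at 0.832 (GABRA4), 0.670 (GRIA3) and 0.668 (GRIA1).

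The authors tested 24 of the 85 members at least once, and 61 members were tested in none of the 9 tables. A member near 0 in GFP cells entered a test only where it was high in the other condition, so the counts of tested members lean toward rises and are given as a description. In FD cells 4, 3 and 5 members rose and 5, 4 and 4 fell, of 10, 11 and 15 tested. Among all loci tested in FD cells, 36.6%, 38.3% and 38.5% were called in either direction, made up of 17.8%, 16% and 16.9% higher and 18.8%, 22.3% and 21.6% lower. In N cells 6, 11 and 10 members rose and 4, 4 and 4 fell, of 16, 19 and 19 tested. All tested loci in N cells were called in 50.5%, 54.7% and 57.1%, with 26.2%, 25.4% and 27.1% higher and 24.3%, 29.3% and 30% lower. In NFD cells 6, 10 and 8 members rose and 4, 4 and 4 fell, of 18, 18 and 19 tested. For all tested loci in NFD cells the shares were 63.4%, 65.8% and 66.1%, with 32.1%, 32.6% and 34.1% higher and 31.3%, 33.2% and 32% lower. In NFD cells the members' share of calls was therefore under the background at 0.5 and 2 DPT, and over it at 1 DPT.

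By the deposited log2 fold changes, the tested members had medians of -0.80, -0.54 and 0.15 in FD cells, 1.37, 2.62 and 1.29 in N cells and 2.19, 2.86 and 1.62 in NFD cells, in the authors' deposited tables. All tested loci had medians between -0.04 and 0.04. A member near 0 in GFP cells entered a median only where it was high in the other condition. The medians of N and NFD cells thus lean toward rises and are given as a description. Over the 9 tables, 13 members were only ever called higher, 4 were only ever called lower and 3 (GABBR1, GRIK4 and HTR1B) were called in both directions. This count was not made over all loci, and it leans toward rises for the same reason as the medians. GABBR2 and GRIK2 rose in all 9 tables, and CHRM2 and GRIA4 fell in all 9. The heat map of the 23 members that reached 1 FPKM or were called shows these rows against the rest.

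**Figure D1:**
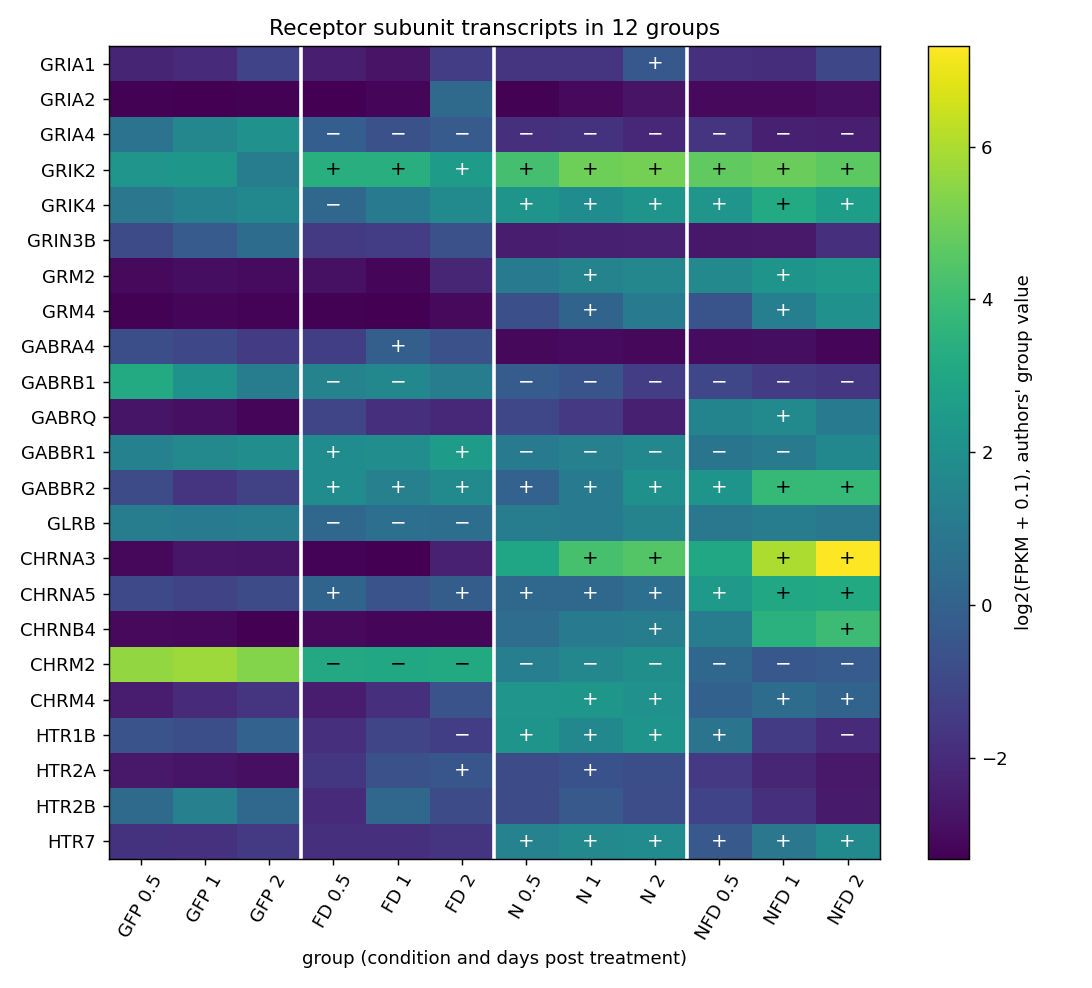
Colour gives log2(FPKM + 0.1) of the authors' group value for 23 receptor members (rows) in 12 groups (columns, condition and days post treatment), and + or − marks a member the authors called higher or lower than GFP of the same time. GRIK2 and GABBR2 carry a + in all 9 treated columns, CHRM2 and GRIA4 a − in all 9, and CHRNA3 in NFD cells at 2 DPT is the brightest cell at 160 FPKM.

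The nicotinic acetylcholine receptors are cation channels of 5 subunits, and the ganglionic type, found in autonomic neurons, is built from the alpha3 and beta4 subunits, with alpha5 as an accessory subunit. The genes of these 3 subunits, CHRNA3, CHRNB4 and CHRNA5, lie side by side on chromosome 15. The authors' table gives CHRNA3 and CHRNA5 one shared locus, from 78857861 to 78913637 on hg19, and CHRNB4 the locus from 78916635 to 78933587. All 3 transcripts were higher in N and NFD cells than in GFP cells at every time, and all 3 were higher in NFD cells than in N cells.

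CHRNA3, which binds acetylcholine at its interface with beta4, was at 0.0156, 0.0554 and 0.0522 FPKM in GFP cells and at 0.00844, 0 and 0.0972 in FD cells. It was at 7.54, 18.4 and 22.0 FPKM in N cells and at 8.20, 64.8 and 160 in NFD cells. The GFP and FD values lay far under all 6 values of the cells with NEUROG2, and the N and NFD values were close at 0.5 DPT only. In the authors' deposited tables the log2 fold changes were 8.92, 8.37 and 8.72 in N cells and 9.04, 10.19 and 11.58 in NFD cells, with Cuffdiff q-values of 0.0619, 0.000816 and 0.0272 in both conditions. CHRNA3 thus rose at 1 and 2 DPT, and its difference at 0.5 DPT missed the threshold. At 2 DPT in NFD cells it stood at rank 571 of 23146 loci by FPKM.

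CHRNB4, the beta subunit that pairs with alpha3, was at 0.0205, 0.0169 and 0 FPKM in GFP cells and at 0.0223, 0.0126 and 0.0110 in FD cells. It was at 1.29, 2.01 and 2.21 FPKM in N cells and at 2.15, 11.2 and 15.4 in NFD cells. In the authors' deposited tables it rose at 2 DPT in both conditions, with a Cuffdiff q-value of 0.000151, and no fold is given since GFP is listed at 0. At 0.5 and 1 DPT the deposited q-values were 0.243 and 0.297 in both conditions, above the threshold. Per length of transcript, CHRNB4 lay under CHRNA3 in all 6 groups with NEUROG2.

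CHRNA5, the accessory subunit, was detected without NEUROG2. It was at 0.411, 0.348 and 0.454 FPKM in GFP cells, 0.966, 0.560 and 0.793 in FD cells, 1.07, 1.08 and 1.39 in N cells and 5.09, 8.04 and 8.81 in NFD cells. The 4 conditions kept the same order at all 3 times, with GFP lowest and NFD highest. CHRNA5 rose by log2 1.38, 1.63 and 1.61 in N cells and 3.63, 4.53 and 4.28 in NFD cells in the authors' deposited tables (Cuffdiff q-value 0.000151 to 0.00248). It also rose in FD cells at 0.5 and 2 DPT, by log2 1.23 and 0.80, and was not tested there at 1 DPT. Because CHRNA3 and CHRNA5 share a locus in the authors' table and the labels do not state whether counting used the strand, reads of overlapping transcripts may have been split between them.

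The promoters of CHRNA3 and CHRNB4 are shown because these genes had the highest NFD levels among those near 0 in GFP cells. NEUROG2 and its relatives bind E-boxes, sequences that read CANNTG. Windows run from 250 bases before to 50 bases after the start of the gene, from RefSeq on GRCh38.p14, 5′ to 3′ on the gene's strand, which is the minus strand for both. CHRNA3 is at chr15:78620947-78621246 and CHRNB4 at chr15:78641161-78641460, and capitals mark CANNTG.
CHRNA3: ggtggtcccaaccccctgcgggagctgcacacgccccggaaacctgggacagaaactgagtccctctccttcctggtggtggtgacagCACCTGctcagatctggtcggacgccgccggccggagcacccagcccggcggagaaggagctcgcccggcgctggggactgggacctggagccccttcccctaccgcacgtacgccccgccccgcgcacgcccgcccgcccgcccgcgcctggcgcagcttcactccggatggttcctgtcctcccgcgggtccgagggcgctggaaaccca
CHRNB4: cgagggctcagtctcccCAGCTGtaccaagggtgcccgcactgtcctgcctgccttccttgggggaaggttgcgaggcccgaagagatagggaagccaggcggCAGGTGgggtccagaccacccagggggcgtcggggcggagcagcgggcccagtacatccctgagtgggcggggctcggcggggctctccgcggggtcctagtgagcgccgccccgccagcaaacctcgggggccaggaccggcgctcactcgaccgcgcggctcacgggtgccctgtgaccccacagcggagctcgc
The CHRNA3 window holds 1 match and the CHRNB4 window 2. CANNTG occurs in 68.7% of all 35116 RefSeq windows of this length and in 69.2% of the 91 windows of 64 members, both strands searched. The narrower CAGATG, an E-box bound by NEUROG factors and contained in CANNTG, occurs in 14.7% of all windows and 13.2% of member windows, and in neither window above. These matches describe the letters only.

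The other 8 neuronal nicotinic subunits were never tested. CHRNA10 reached 0.471 FPKM and CHRNB2, a beta subunit of the main brain receptor, reached 0.160. CHRNA7, which forms receptors of its own, reached 0.0854 FPKM. The 5 subunits of the muscle receptor were followed beside them. CHRNA1, the acetylcholine-binding alpha subunit of muscle, was at 1.38, 0.757 and 0.944 FPKM in GFP cells, 62.7, 53.0 and 39.0 in N cells and 63.4, 93.3 and 104 in NFD cells, and rose in all 6 of the N and NFD tables. At 2 DPT CHRND, the delta subunit, rose in N and NFD cells and CHRNB1 fell in both, of 4 tested. CHRNG, the gamma subunit of the fetal muscle receptor, was at 0, 0.00959 and 0.0272 FPKM in GFP cells, 3.64, 4.04 and 5.04 in N cells and 2.07, 1.97 and 2.77 in NFD cells. It rose at 0.5 DPT in both and was not called at 1 and 2 DPT. A list of 10 skeletal muscle markers was followed with them. At 2 DPT 2 were tested in N cells and DES rose, and 4 were tested in NFD cells and MYOD1 and MYH8 rose. Among all loci tested at 2 DPT, 27.1% rose in N cells and 34.1% in NFD cells. At 0.5 and 1 DPT DES rose and TNNT1 fell in both conditions, and ACTA1 rose in NFD cells at 0.5 DPT. The summed level of the 10 markers was 1.22 to 2.75 FPKM in GFP cells, 3.33 to 5.59 in N cells and 2.89 to 7.46 in NFD cells. MYF5 was at 0 in NFD cells at 2 DPT, and the part of these markers in the nicotinic values was not tested.

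The muscarinic receptors are G protein coupled and respond to acetylcholine. CHRM2, which lowers cyclic AMP through Gi and is the main muscarinic receptor of heart and smooth muscle, was the highest receptor transcript of the control fibroblasts. It was at 48.1, 54.3 and 40.6 FPKM in GFP cells, 8.52, 8.19 and 8.71 in FD cells, 2.21, 2.91 and 3.80 in N cells and 1.12, 0.633 and 0.727 in NFD cells. The 4 conditions did not overlap over the 3 times. The deposited log2 fold changes were -2.50, -2.73 and -2.22 in FD cells, -4.44, -4.22 and -3.42 in N cells and -5.42, -6.42 and -5.80 in NFD cells, all at the floor Cuffdiff q-value of 0.000151 in the authors' deposited tables. The locus (chromosome 7, 136553398 to 136701771, hg19) also contains MIR490. GFP cells thus held 55.8 times as much CHRM2 as NFD cells at 2 DPT.

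CHRM4, the other Gi-coupled muscarinic receptor and one found mainly in brain, took the opposite course. It was at 0.0730, 0.145 and 0.202 FPKM in GFP cells, 0.0800, 0.167 and 0.564 in FD cells, 4.57, 4.87 and 4.05 in N cells and 0.878, 1.25 and 0.955 in NFD cells. N cells were highest at all 3 times, and NFD cells lay between N and GFP. It rose at 1 and 2 DPT by log2 5.07 and 4.33 in N cells and 3.11 and 2.24 in NFD cells, with Cuffdiff q-values of 0.000151 to 0.00119 in the authors' deposited tables. At 0.5 DPT the deposited q-values were 0.0785 in N cells and 0.0798 in NFD cells. Of the other 3 muscarinic receptors, CHRM3 was at or over 0.2 FPKM in all 12 groups, up to 0.378, and CHRM1 and CHRM5 never reached 0.2. None of the 3 was tested.

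**Figure D2:**
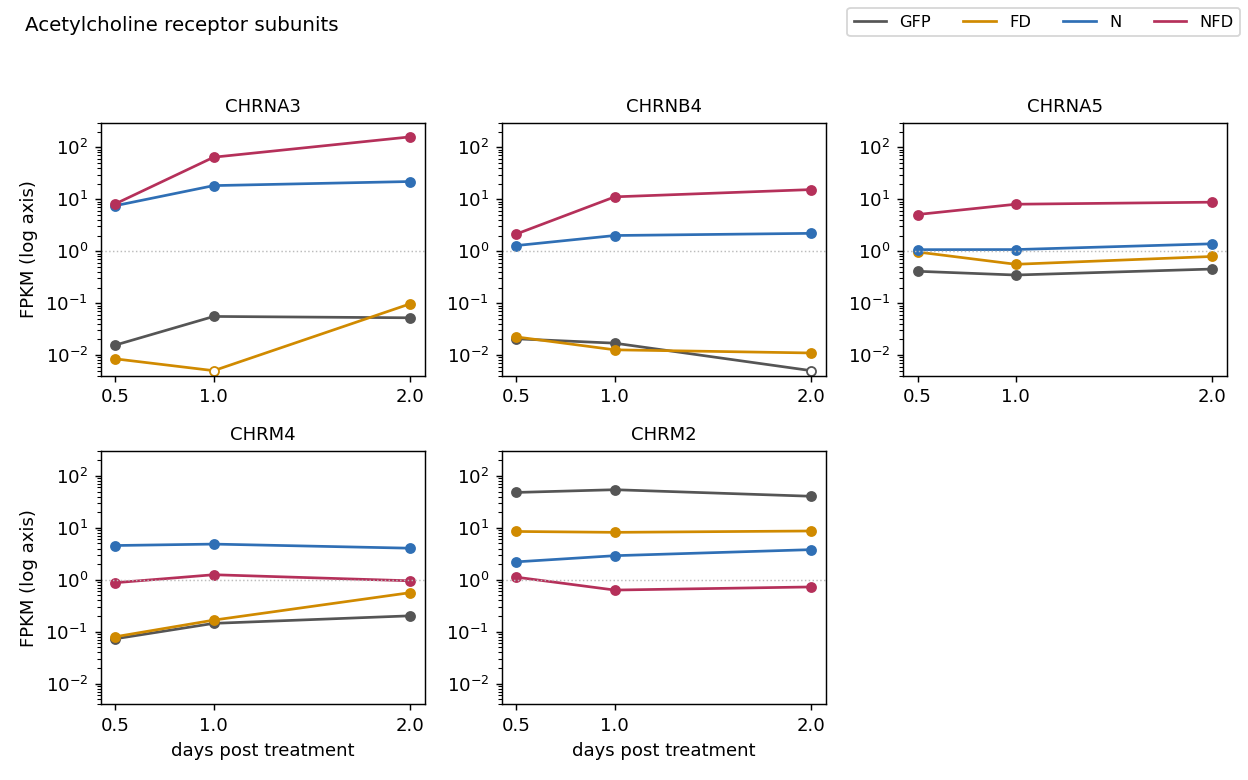
Authors' FPKM (log axis, 1 value per group of 3 libraries) against days post treatment for 5 acetylcholine receptor genes, with 1 line per condition; open circles at 0.005 FPKM stand for values at or under it, and the dotted line is 1 FPKM. CHRNA3 in NFD cells goes from 8.20 to 160 FPKM while CHRM2 is 40.6 to 54.3 FPKM in GFP cells and 0.633 to 1.12 in NFD cells.

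Glutamate acts on AMPA, kainate, NMDA and delta channel families and on metabotropic receptors. Of these, the kainate subunits GRIK2 and GRIK4 rose, the AMPA subunit GRIA4 fell, and the metabotropic receptors GRM2 and GRM4 rose in N and NFD cells at 1 DPT from levels near 0. No NMDA subunit was called in any table, but of the 7 only GRIN3B was ever tested.

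GRIK2, a pore-forming kainate subunit that can work on its own, was at 4.54, 4.85 and 2.20 FPKM in GFP cells, 10.1, 10.2 and 5.85 in FD cells, 18.0, 30.8 and 34.0 in N cells and 26.3, 29.6 and 24.9 in NFD cells. FD cells lay between GFP cells and both conditions with NEUROG2 at every time, and N and NFD cells overlapped. It rose by log2 1.15, 1.08 and 1.41 in FD cells, 1.98, 2.67 and 3.95 in N cells and 2.53, 2.61 and 3.50 in NFD cells in the authors' deposited tables, with a Cuffdiff q-value of 0.000151 in all 9. GRIK4, a subunit that binds kainate tightly but needs a partner such as GRIK2 to form a channel, was at 1.75, 2.45 and 3.004 FPKM in GFP cells, 1.10, 2.07 and 3.33 in FD cells, 4.50, 3.48 and 4.48 in N cells and 4.65, 8.98 and 5.99 in NFD cells. It rose by log2 1.36, 0.50 and 0.58 in N cells and by 1.41, 1.87 and 1.00 in NFD cells, and fell by 0.67 in FD cells at 0.5 DPT, in the authors' deposited tables. GRIK1, GRIK3 and GRIK5 were never tested and reached 0.101, 0.0790 and 0.288 FPKM.

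The AMPA channels carry most fast excitation in the brain. GRIA4, one of its 4 subunits, was at 1.55, 2.93 and 4.13 FPKM in GFP cells, 0.801, 0.525 and 0.723 in FD cells, 0.175, 0.191 and 0.129 in N cells and 0.208, 0.0935 and 0.0874 in NFD cells. FD cells lay between GFP cells and the NEUROG2 conditions at all 3 times. It fell in all 9 tables: the deposited log2 fold changes were -0.95, -2.48 and -2.51 in FD cells, -3.14, -3.94 and -4.996 in N cells and -2.90, -4.97 and -5.56 in NFD cells, with a Cuffdiff q-value of 0.000151 in each of the authors' deposited tables. GRIA1 rose once, in N cells at 2 DPT, from 0.343 to 0.668 FPKM (log2 0.96, q-value 0.000151 in the authors' deposited table). GRIA2, the subunit whose edited form makes AMPA channels nearly impermeable to calcium, never passed 0.0462 FPKM in N and NFD cells.

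NMDA channels need GRIN1 together with a GRIN2 or GRIN3 subunit. GRIN1 reached 0.385 FPKM, in NFD cells at 2 DPT, and was not tested. GRIN3B was at 0.456, 0.728 and 1.25 FPKM in GFP cells and at 0.0588, 0.0640 and 0.177 in NFD cells, with Cuffdiff q-values of 0.198 to 0.271 where the authors' deposited tables hold a test. Its locus overlaps C19orf6, and whether counting used the strand was not stated, so the reads of the pair may have been shared. The delta subunit GRID1 reached 0.133 FPKM and was not tested.

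GRM2 and GRM4 couple to Gi and sit mainly on nerve terminals, where they restrain transmitter release. GRM2 was at 0.0192, 0.0299 and 0.0235 FPKM in GFP cells, 0.0389, 0.0122 and 0.119 in FD cells, 2.07, 2.64 and 2.91 in N cells and 3.11, 4.396 and 5.23 in NFD cells. GRM4 was at 0.00385, 0.0130 and 0.00600 FPKM in GFP cells, 0.00522, 0 and 0.0222 in FD cells, 0.498, 0.967 and 1.97 in N cells and 0.585, 2.35 and 4.03 in NFD cells. For both genes the N and NFD values lay above every GFP and FD value, and NFD lay above N at each time. At 1 DPT GRM2 rose by log2 6.47 and 7.20 and GRM4 by 6.21 and 7.49 in N and NFD cells, with Cuffdiff q-values of 0.00382 and 0.0252 in the authors' deposited tables. At 2 DPT, with higher FPKM, the deposited q-values were 0.238 for GRM2 and 0.278 for GRM4 in both conditions, so neither was called. The other 6 metabotropic receptors never reached 0.2 FPKM.

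The deposited p-values of genes near 0 in GFP cells often repeated between conditions. For a member tested in both N and NFD with a p-value above the smallest deposited one, the N and NFD p-values were identical in 10 of 11 cases where GFP was under 0.1 FPKM, and in 0 of 10 where GFP was at or over it. Among all loci the deposited p-values were identical in 298 of 366 and in 63 of 18995 cases. CHRNA3, CHRNB4, GRM2 and GRM4 were the members with p-values repeated between N and NFD, although their NFD levels lay above their N levels. Repeats also ran between genes. GABRQ, a GABA receptor subunit tested in NFD cells only, had the same Cuffdiff p-values as GRM4 at 1 DPT (0.0128) and 2 DPT (0.19715). At 0.5 DPT the Cuffdiff p-value of GABRQ (0.04575) was that of CHRM4 in N cells. The call of GABRQ at 1 DPT thus rests on a repeated p-value.

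GABA, the main inhibitory transmitter, opens the chloride channels of the GABA-A family and acts through the metabotropic GABA-B receptor. The GABA-B receptor works only as a pair: GABBR1 binds GABA, and GABBR2 brings GABBR1 to the surface and couples to Gi. The partners differed in their response.

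GABBR2 was at 0.462, 0.203 and 0.314 FPKM in GFP cells, 3.46, 2.40 and 3.17 in FD cells, 0.921, 2.05 and 3.97 in N cells and 4.45, 14.1 and 13.9 in NFD cells. Every treated group was above every GFP group, and NFD cells were highest at each time. It rose by log2 2.91, 3.57 and 3.34 in FD cells, 1.00, 3.34 and 3.66 in N cells and 3.27, 6.11 and 5.47 in NFD cells in the authors' deposited tables, with a Cuffdiff q-value of 0.000151 in all 9. GABBR1 was at 2.45, 3.13 and 3.67 FPKM in GFP cells, 3.55, 3.62 and 5.59 in FD cells, 1.93, 2.37 and 2.998 in N cells and 1.66, 1.94 and 3.03 in NFD cells. In the authors' deposited tables it rose in FD cells at 0.5 and 2 DPT by log2 0.54 and 0.61, and it fell in N cells at all 3 times, with log2 fold changes of -0.34, -0.40 and -0.29. It also fell in NFD cells at 0.5 and 1 DPT, with -0.56 and -0.69. GABBR1 exceeded GABBR2 in all 3 GFP groups, while in NFD cells GABBR2 exceeded GABBR1 at each time. The authors' table places GABBR1 on the alternative haplotype chr6_qbl_hap6 and not on the main chromosome 6.

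The promoters of GABBR1, GABBR2 and GRIK2 are shown as those of risen FD transcripts that hold a TGACG match, and were chosen after the matches were seen. The windows of GABRA4 and HTR2A, which also rose in FD cells, hold none, and CHRNA5, another risen member, has no window. Of the members that fell in FD cells, CHRM2, GLRB and GRIA4 also hold TGACG matches. The windows of GABRB1, GRIK4 and HTR1B, which fell there too, hold none. CREB, the factor that answers to cyclic AMP, binds TGACGTCA and its shorter core TGACG. Windows are those of RefSeq on GRCh38.p14, 5′ to 3′ on the gene's strand. They are chr6:29627964-29628263 on the minus strand for GABBR1, chr9:98708886-98709185 on the minus strand for GABBR2 and chr6:101393458-101393757 on the plus strand for GRIK2, which has 2 windows with 1 match each. Capitals mark TGACG or its reverse complement CGTCA, and the 2 overlapping matches of GABBR1 together read TGACGTCA.
GABBR1: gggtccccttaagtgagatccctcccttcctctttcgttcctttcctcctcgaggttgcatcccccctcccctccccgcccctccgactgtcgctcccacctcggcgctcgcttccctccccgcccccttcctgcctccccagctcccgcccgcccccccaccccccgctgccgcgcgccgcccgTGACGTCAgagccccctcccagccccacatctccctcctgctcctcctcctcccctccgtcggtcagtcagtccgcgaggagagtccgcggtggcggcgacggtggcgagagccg
GABBR2: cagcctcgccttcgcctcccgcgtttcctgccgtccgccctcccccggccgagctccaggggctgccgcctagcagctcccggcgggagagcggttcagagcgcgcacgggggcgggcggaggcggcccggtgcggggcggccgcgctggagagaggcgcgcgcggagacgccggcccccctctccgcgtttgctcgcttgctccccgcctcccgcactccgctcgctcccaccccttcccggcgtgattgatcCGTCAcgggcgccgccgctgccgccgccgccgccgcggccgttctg
GRIK2: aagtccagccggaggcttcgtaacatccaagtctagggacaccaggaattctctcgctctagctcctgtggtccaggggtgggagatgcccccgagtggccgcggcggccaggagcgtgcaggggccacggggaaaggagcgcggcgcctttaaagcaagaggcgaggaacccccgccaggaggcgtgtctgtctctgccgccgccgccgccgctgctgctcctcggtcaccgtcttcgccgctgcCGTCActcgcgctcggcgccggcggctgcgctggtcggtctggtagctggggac
TGACGTCA occurs in 1.85% of all windows and, among member windows, in the GABBR1 window alone (1.1% of the 91). TGACG, which TGACGTCA contains, occurs in 24.6% of all windows and 29.7% of member windows, both strands searched. A match is not a bound site, and no binding was measured in these libraries.

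GABA-A channels are usually built from alpha, beta and gamma subunits. GABRB1, a beta subunit, was the main one of the control cells, at 9.09, 4.38 and 2.21 FPKM in GFP cells. It was at 2.64, 3.003 and 2.099 FPKM in FD cells, 0.762, 0.588 and 0.279 in N cells and 0.380, 0.262 and 0.219 in NFD cells. The GFP level itself was lower at each later time, and all N and NFD values lay under every GFP and FD value. It fell in FD cells at 0.5 and 1 DPT, with log2 fold changes of -1.78 and -0.54, and at all times in N cells (-3.58, -2.90 and -2.98) and NFD cells (-4.58, -4.06 and -3.33) in the authors' deposited tables (Cuffdiff q-value at most 0.000291). At 2 DPT in FD cells the deposited log2 fold change was -0.07 with a q-value of 0.735.

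GABRQ, the theta subunit, had its high values in NFD cells. It was at 0.0529, 0.0363 and 0.0123 FPKM in GFP cells, 0.370, 0.168 and 0.126 in FD cells, 0.377, 0.243 and 0.0919 in N cells and 2.71, 3.28 and 2.01 in NFD cells. The authors tested it in NFD cells only, where it rose at 1 DPT (log2 6.50, Cuffdiff q-value 0.0252 in the authors' deposited table) and had q-values of 0.0785 and 0.278 at 0.5 and 2 DPT. GABRA4, an alpha subunit, rose in FD cells at 1 DPT from 0.392 to 0.832 FPKM (log2 1.09, q-value 0.000151 in the authors' deposited table). It was at 0.0126 to 0.0302 FPKM in N and NFD cells and was not tested there. The other 16 GABA-A subunits were never tested.

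**Figure D3:**
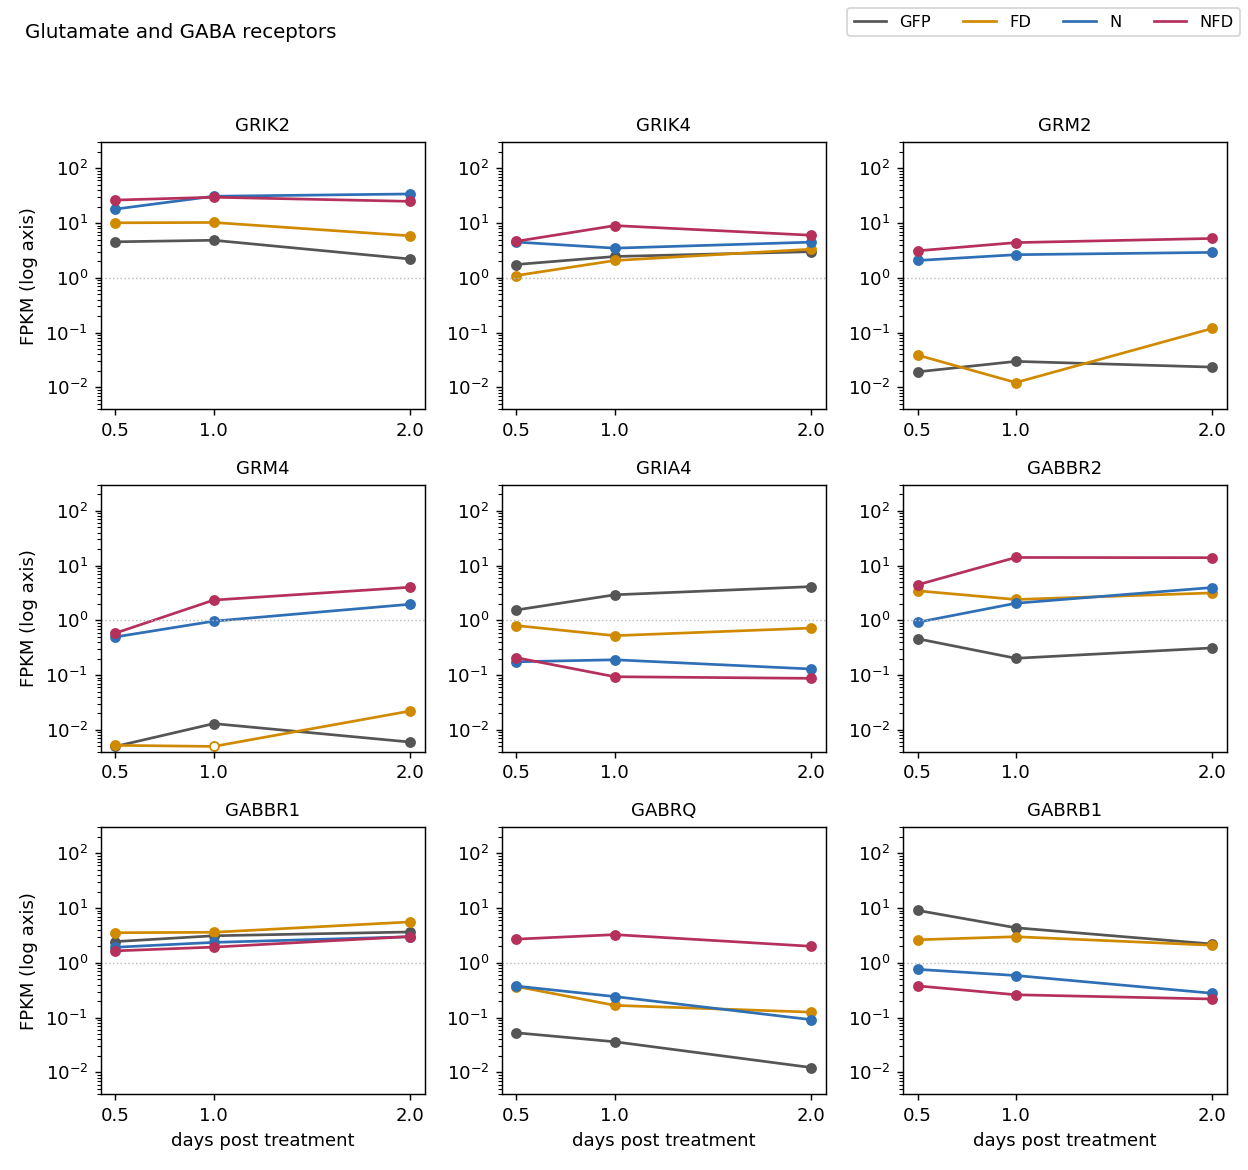
Authors' FPKM (log axis, 1 value per group of 3 libraries) against days post treatment for 9 glutamate and GABA receptor genes, with 1 line per condition; open circles at 0.005 FPKM stand for values at or under it, and the dotted line is 1 FPKM. GRIK2 and GABBR2 lie above GFP in every treated condition, GRM2 and GRM4 in N and NFD cells lie above their GFP and FD values, and GRIA4 and GABRB1 run in the opposite order, with NFD or N lowest.

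Glycine receptors are chloride channels of alpha subunits and the beta subunit GLRB, which binds the scaffold protein gephyrin and does not form channels by itself. GLRB was at 2.14, 2.01 and 2.17 FPKM in GFP cells, 1.12, 1.38 and 1.34 in FD cells, 2.18, 2.07 and 2.57 in N cells and 1.79, 2.15 and 1.84 in NFD cells. The FD values lay under all other groups. GLRB fell in FD cells, with log2 fold changes of -0.93, -0.54 and -0.69 in the authors' deposited tables, with Cuffdiff q-values of 0.000151 to 0.00393. In N and NFD cells the deposited log2 fold changes were between -0.26 and 0.25, with q-values of 0.152 to 0.888. The alpha subunits GLRA1 to GLRA4 never passed 0.0750 FPKM, so the channel-forming partner was close to silent in all groups.

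Serotonin acts mainly through G protein coupled receptors, and HTR3 subunits form its only channel. The 5 HTR3 genes never passed 0.0389 FPKM. HTR7, which raises cyclic AMP through Gs, was at 0.193, 0.186 and 0.249 FPKM in GFP cells, 0.174, 0.173 and 0.215 in FD cells, 2.52, 3.16 and 3.39 in N cells and 0.695, 1.75 and 3.28 in NFD cells. All N and NFD values lay above every GFP and FD value, and N and NFD cells were at nearly the same level at 2 DPT. It rose by log2 3.71, 4.09 and 3.77 in N cells and 1.85, 3.23 and 3.72 in NFD cells, with a Cuffdiff q-value of 0.000151 in each of the authors' deposited tables.

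HTR1B, which lowers cyclic AMP through Gi, was at 0.553, 0.496 and 0.923 FPKM in GFP cells, 0.167, 0.364 and 0.292 in FD cells, 4.41, 3.05 and 4.42 in N cells and 1.62, 0.256 and 0.140 in NFD cells. N cells were above all other groups, whereas NFD cells lay above GFP cells at 0.5 DPT and under them at 1 and 2 DPT. HTR1B rose in N cells by log2 2.996, 2.62 and 2.26 in the authors' deposited tables. In NFD cells it rose by 1.55 at 0.5 DPT (Cuffdiff q-value 0.000559) and fell by 2.72 at 2 DPT (q-value 0.0262), and it fell by 1.66 in FD cells at 2 DPT (q-value 0.00801 in the authors' deposited tables). HTR2A, coupled to Gq, rose in FD cells at 2 DPT from 0.0347 to 0.621 FPKM and in N cells at 1 DPT from 0.0535 to 0.539, by log2 4.16 and 3.33 in the authors' deposited tables (q-values 0.000151 and 0.00107). HTR2B, also coupled to Gq, was at 1.17, 2.36 and 1.09 FPKM in GFP cells, was at 0.341, 0.178 and 0.0724 in NFD cells, and was tested in all 9 tables with no call (q-values 0.182 to 0.475). Its locus contains PSMD1, a proteasome gene, and whether counting used the strand was not stated.

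N and NFD cells differ by the 2 molecules. No table compares them, so their levels were set side by side and the ratios have no test. Of the 23 named members, 19 had at least 0.2 FPKM in N or NFD cells at all 3 times. Of these, 8 were higher in NFD cells at all 3 times, 8 were lower at all 3 and 3 were mixed. The same count was not made over all loci, and these members were named by their levels or calls in the same data. The counts are therefore a description only. At least 2-fold higher at all 3 times were CHRNA5, GABBR2 and GABRQ, with log2 ratios of NFD to N of 2.25 to 2.90, 1.81 to 2.78 and 2.85 to 4.45. At least 2-fold lower at all 3 times were CHRM4 and HTR1B, with log2 ratios of -2.38 to -1.96 and -4.98 to -1.44. For CHRNA3 the log2 ratio was 0.12, 1.82 and 2.86, and for CHRNB4 it was 0.74, 2.47 and 2.80. GRIK2, the highest kainate subunit, had log2 ratios of 0.55, -0.06 and -0.45, and GABBR1 lay between -0.29 and 0.01.

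**Figure D4:**
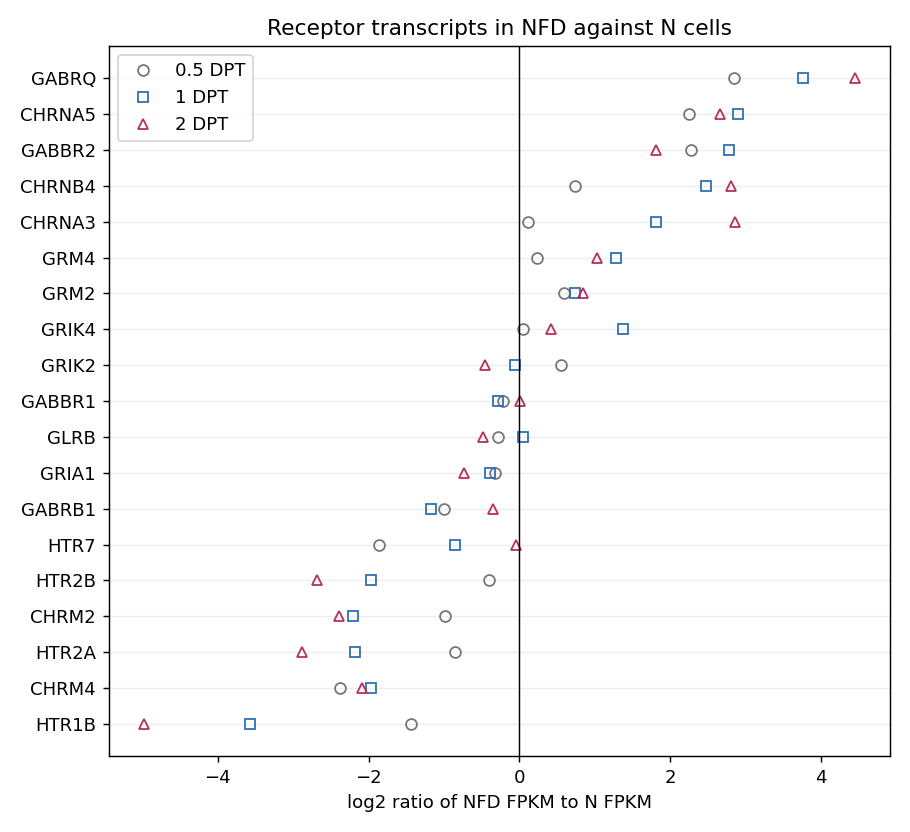
Log2 ratio of NFD FPKM to N FPKM (x axis) for 19 receptor members (rows), with 1 symbol per time and a line at a ratio of 1; there are no error bars because each group has 1 deposited value. GABRQ, CHRNA5 and GABBR2 lie to the right at all 3 times with log2 ratios of 1.81 or more, and HTR1B lies furthest to the left at -4.98 at 2 DPT.

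FD cells at 2 DPT differed from the other FD groups in how many subunits were detected. Of the 85 members, 27 reached 0.2 FPKM there against 16 at both earlier times, and 18 were listed at 0 against 36 and 30. Among all loci 59.6%, 60.2% and 62.0% reached 0.2 FPKM in FD cells at 0.5, 1 and 2 DPT, and loci listed at 0 were not counted. In that group 9 members were at least 4 times as high as in each of the other 11 groups and at or over 0.1 FPKM, and no other group had such a member. Among them were the AMPA subunits GRIA2 (1.18 FPKM, at most 0.0462 elsewhere) and GRIA3 (0.670, at most 0.0590 elsewhere) and the NMDA subunits GRIN2A (0.122) and GRIN2B (0.285). The GABA-A subunits GABRA3 (0.135) and GABRB2 (0.105) and the metabotropic receptor GRM7 (0.130 FPKM) were also among them. GABRA3, and GRM3 at 0.0753 FPKM, were listed at 0 in the other 11 groups. Among all loci 63 met the same condition at FD 2 DPT and 110 at NFD 2 DPT, against 6 to 18 in each of the other 10 groups.

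The authors tested 2 of these 9 members. GRIA2 had a deposited log2 fold change of 8.08 with a Cuffdiff q-value of 0.336 in the authors' deposited table, and GRIA3 was not called either. Markers of neurons and glia were set beside these subunits. The neuronal RNA-binding protein ELAVL4 was at 0.484 FPKM in FD cells at 2 DPT and at most 0.00993 elsewhere, and SNAP25, a protein of vesicle fusion, was at 5.22, 7.27 and 20.6 FPKM in FD cells. Of the 12 neuron markers, 9 reached 0.2 FPKM in FD cells at 2 DPT, against 5 in GFP, 8 in N and 9 in NFD cells. DCX, ELAVL3 and NEFM stayed under 0.2 FPKM in FD cells at 2 DPT. Of 5 neuron markers tested in that group only SNAP25 rose, and INA, MAP2, SYN1 and TUBB3 were not called. Of 10 glia markers, 3 were tested there and all 3 rose, among them MBP from 0.255 to 2.32 FPKM. The summed level of the 10 was 2.80 to 7.04 FPKM in FD cells, 1.96 to 2.46 in GFP cells, 5.06 to 6.10 in N cells and 10.3 to 13.7 in NFD cells. In FD cells at 2 DPT the astrocyte genes GFAP and AQP4 were at 0.0379 and 0.00444 FPKM, and OLIG2 was at 0. Whether 1 of the 3 libraries holds these transcripts cannot be seen from a group value, and the part of the markers was not tested.

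**Figure D5:**
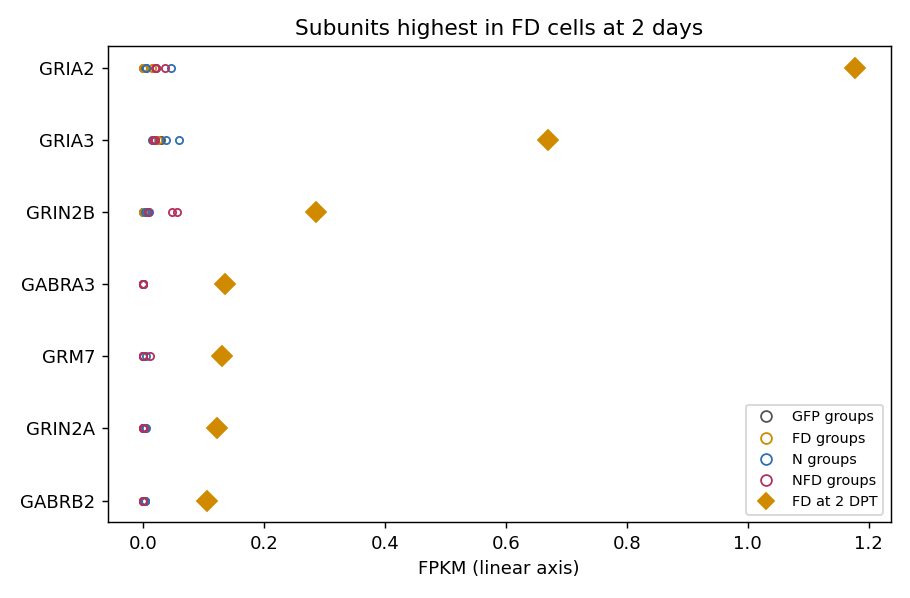
Authors' FPKM (linear axis) of 7 receptor subunits, with a filled diamond for FD cells at 2 DPT and open circles for the other 11 groups, coloured by condition. Each diamond is at 0.105 FPKM or more, up to 1.18 for GRIA2, and the other groups stay at or under 0.0590 FPKM.

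Receptors work with proteins that anchor them, modify them or supply their transmitter. Of 48 anchoring and auxiliary proteins, at 2 DPT 12 rose and 5 fell in FD cells (30 tested), 10 rose and 9 fell in N cells (25 tested), and 14 rose and 8 fell in NFD cells (26 tested). The median deposited log2 fold changes at 2 DPT were 0.23, -0.01 and 0.43 in FD, N and NFD cells in the authors' deposited tables. All tested loci had medians of -0.01, -0.01 and 0.04, and 38.5%, 57.1% and 66.1% of them were called. KCTD12, an auxiliary subunit of the GABA-B receptor, was at 13.9, 12.6 and 16.6 FPKM in GFP cells, 96.4, 129 and 143 in N cells and 36.9, 36.4 and 57.7 in NFD cells, and rose in all 9 tables. CNIH2, an auxiliary subunit of AMPA channels, rose from 2.74 to 51.8 FPKM in NFD cells at 2 DPT and to 9.63 in N cells. NETO2, an auxiliary subunit of kainate receptors, rose in all 9 tables and was at 21.9 FPKM in N cells and 12.8 in NFD cells at 2 DPT against 8.38 in GFP cells. SHANK2, a postsynaptic scaffold, fell at 2 DPT with log2 fold changes of -1.91, -2.13 and -2.00 in FD, N and NFD cells in the authors' deposited tables. LYNX1, a membrane protein that restrains nicotinic receptors, fell in N and NFD cells at all 3 times, with log2 fold changes of -1.46 and -1.41 at 2 DPT in the authors' deposited tables.

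Of 37 genes of transmitter synthesis, transport and breakdown, at 2 DPT 4 rose and 7 fell in FD cells (16 tested), 9 rose and 7 fell in N cells (19 tested), and 8 rose and 9 fell in NFD cells (21 tested). Their median deposited log2 fold changes were -0.23, 0.62 and -0.22 in the authors' deposited tables. All tested loci had medians of -0.01, -0.01 and 0.04 at 2 DPT, and 38.5%, 57.1% and 66.1% of them were called. SLC18A3, which loads acetylcholine into vesicles, rose at 2 DPT from a GFP value of 0 to 6.12 FPKM in N cells and 6.71 in NFD cells. CHAT, which makes acetylcholine, rose in N cells at 2 DPT to 0.656 FPKM. In NFD cells CHAT was at 0.201, 0.507 and 0.410 FPKM and was never called. The choline transporter SLC5A7 was listed at 0 in all N and NFD groups. SLC18A2 was at 16.8 FPKM in NFD cells at 2 DPT and was not called. BCHE, an enzyme that breaks down acetylcholine and other choline esters, rose by log2 2.68 and 1.80 at 2 DPT in N and NFD cells in the authors' deposited tables. GAD1, which makes GABA, reached 0.548 and 1.24 FPKM there and rose in both. Of the 3 vesicle transporters of glutamate, SLC17A7 was at 0.0106, 0.0314 and 0.0333 FPKM in GFP cells, 0.00532, 0.00558 and 0.654 in FD cells, 0.665, 1.84 and 3.83 in N cells and 0.849, 2.29 and 12.2 in NFD cells. It was tested in 7 tables and called in none. SLC17A6 and SLC17A8 never passed 0.00453 and 0.150 FPKM and were not tested. MAOA, which breaks down serotonin and other monoamines, rose by log2 3.16 in FD cells and fell in N and NFD cells (-2.14 and -2.86), all at 2 DPT in the authors' deposited tables. SLC18A3, CHAT, SLC5A7, SLC18A2, GAD1 and the SLC17A genes were named here after their values were seen.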

How the data were processed

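Total RNA of 36 libraries was sequenced with a stranded kit, and the submitters' processing notes name TopHat 1.4.1, Cufflinks 2.1.0, Cuffdiff 2.1.0 and the build GRCh37 (hg19). Per the file headers, the authors deposited FPKM for GFP and for 1 other group in each of 9 tables, 1 value per group of 3 libraries. The log2 fold change, p-value and q-value are those of the authors' deposited tables, and their mark of significance follows a q-value of 0.05. No p-value lies under 5e-05 and no q-value under 0.000151. Counts per library were not analysed here, so depth is unknown and no test was run from these values. Whether counting used strand is not given in the sources used here.

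Groups were taken from the sample labels. Members were matched by symbol, and 26 names that a spreadsheet turned into dates were not searched. Named members reached 1 FPKM in a group or were called by the authors, as did 23. From the lists of related genes, the text names those called the same way at all 3 times of a condition with the 6 largest changes at 2 DPT and at least 1 FPKM in the higher group, unless it says otherwise. Some genes that meet these rules are not reported here. The members, lists and motifs were chosen with earlier results of these data known. CANNTG was added after the other motifs. Values were handled with Python 3.11.15, pandas 2.3.3 and numpy 2.4.6, and plots were drawn with matplotlib 3.10.9. The recomputed Benjamini-Hochberg adjustment was tested on simulated data. Alternatives were another q-value, an adjustment within each table, other FPKM levels, tested members alone and pseudocounts of 0.1 and 1.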

Additional observations from a re-analysis of the deposited data

Results flagged for a closer look

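HTR1B in NFD cells was called in opposite directions at different times: the deposited log2 fold change against GFP was 1.55 at 0.5 DPT and -2.72 at 2 DPT in the authors' deposited tables. FPKM was 0.553 and 1.62 in GFP and NFD cells at 0.5 DPT, and 0.923 and 0.140 at 2 DPT. The difference between the times was not tested, since the authors' tables hold no comparison of times.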

How the results depend on the processing

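No paired analysis was possible because the authors' tables hold 1 value per group, and for the same reason no replicate was left out in turn. The counts of members called stayed within 1.5 times in all 9 tables at a q-value of 0.01, with p-values adjusted within the table, and with at least 0.2 or 1 FPKM in the higher group. Counting only members the authors tested lowered those reaching 0.2 FPKM in FD cells from 16 to 9 at 0.5 DPT and from 27 to 15 at 2 DPT. At a threshold of 0.5 FPKM in place of 1, FD cells at 2 DPT held 15 members in place of 8. The direction of a named value could not be reversed by a pseudocount, since the same amount is added to both groups, so direction was not tested this way. With a pseudocount of 0.1, 47 of the log2 values moved and 164 did not, and with a pseudocount of 1, 94 moved and 48 did not; a pseudocount shrinks the fold of any gene that is low in 1 of the groups. FPKM under 0.2 rests on few fragments, and unknown depth leaves its error unknown.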
